A study of Mus musculus with 9 samples.

Results

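Mouse CD4+ T cells activated for 3 hours at 39 °C were compared with cells given the same stimulus for the same time at 37 °C. The comparison uses 6 of the 9 libraries of the study, 3 per temperature, chosen by their labels and not by any measured value. The cells came from the spleen of B6 mice and were cultured in RPMI1640 medium with serum in plates coated with antibodies against CD3, a part of the T cell receptor complex, and CD28, a costimulatory receptor. Both groups carry this stimulus, so the comparison holds stimulus and time constant and varies the incubator setting alone as far as the labels say. The labels do not show whether the cells were activated to the same degree. By the sample labels the RNA is from CD4+ T cells, whereas the culture protocol speaks of spleen cells, and neither states whether each library had its own mouse or culture. The p-values therefore measure only the spread between these libraries, which may be technical. The other 3 libraries, from naive cells that were not activated, enter no test here.

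As background, cells that meet unfolded protein, heat being the classic trigger, release the transcription factor HSF1 from its chaperone partners, and HSF1 binds heat shock elements to raise Hsp70, Hsp90, Hsp110, their co-chaperones and small heat shock proteins. A separate branch, the integrated stress response, works through the transcription factor ATF4 and its partner CHOP, the product of Ddit3, and raises genes of amino acid supply. A T cell that is stimulated through its receptor and CD28 raises immediate early transcription factors, NF-kB feedback genes and cytokines within hours, and its growth raises demand for protein folding. Fever-range warmth of T cells has been studied for effects on cytokine output and lineage choice.

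The 6 libraries held 12647692 to 16267632 counts, and 12751 genes had enough counts to be tested. The 16 markers of CD4 T cells were all measured, with summed levels of 8814 to 9184 CPM at 37 °C and 9155 to 9778 CPM at 39 °C, where CPM is the number of counts per 1e+06, scaled to a common library size. Markers of B cells were present at a far lower sum, 297 to 308 CPM at 37 °C and 321 to 334 CPM at 39 °C, and 0 of the 16 tested were called. Summed markers of CD8 T cells stayed under 15 CPM in every library, those of NK cells under 44.3 CPM and those of myeloid cells under 4.62 CPM. Erythroid and platelet markers summed to 13.2 to 14.9 CPM at 37 °C and 13.7 to 14.5 CPM at 39 °C, Itga2b being the highest of those tested. Neutrophil markers summed to at most 0.348 CPM. Some members of these lists and the stromal list, among them C1qb, Clec9a, Siglech, Ly6g, Cxcr2, Pf4, Ppbp, Kdr and Dcn, had no read in any of the 6, while other members had reads. Among stromal and endothelial markers the signal came almost wholly from Pecam1, which T cells also express and which rose by 0.24 on the log2 scale (adjusted p 0.00914), a call lost in 3 of the 6 fits without 1 library. Reads of mitochondrial genes made up 1.39% to 1.49% of the counts at 37 °C and 1.5% to 1.61% at 39 °C. The labels are the sole source for the temperature of each library.

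The temperatures differed in few genes and mostly by small amounts. In edgeR's quasi-likelihood test at an adjusted p of 0.05, 401 genes were called (3.14% of those tested), 136 higher at 39 °C (1.07%) and 265 lower (2.08%). Called genes that differed at least 2-fold numbered 5 higher (0.0392%), which were Soat2, Slc7a11, Jdp2, Sytl3 and Gtse1, and 31 lower (0.243%). The median size of the log2 fold change was 0.30 among genes called higher and 0.37 among genes called lower. An unadjusted p under 0.05 was found for 2089 genes (16.4%), and single libraries of the temperatures did not overlap for 2701 (21.2%), which include all 401 called genes. Of the called genes, 135 (27 higher, 108 lower) were also called when each of the 6 libraries was left out in turn. Leaving out library 3 of the 39 °C group raised the count of calls to 979, leaving out library 2 of that group lowered it to 150, and leaving out library 1, 2 or 3 of the 37 °C group gave 171, 209 and 212. In a bulk library, fewer cells of a type and less RNA per cell cannot be told apart. Genes called lower had a median exonic length of 5210 bases, against 3500 for genes called higher and 4080 for all genes tested, and the part of this difference in the calls was not tested beyond the alternative with the length trend removed.

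**Figure D1:**
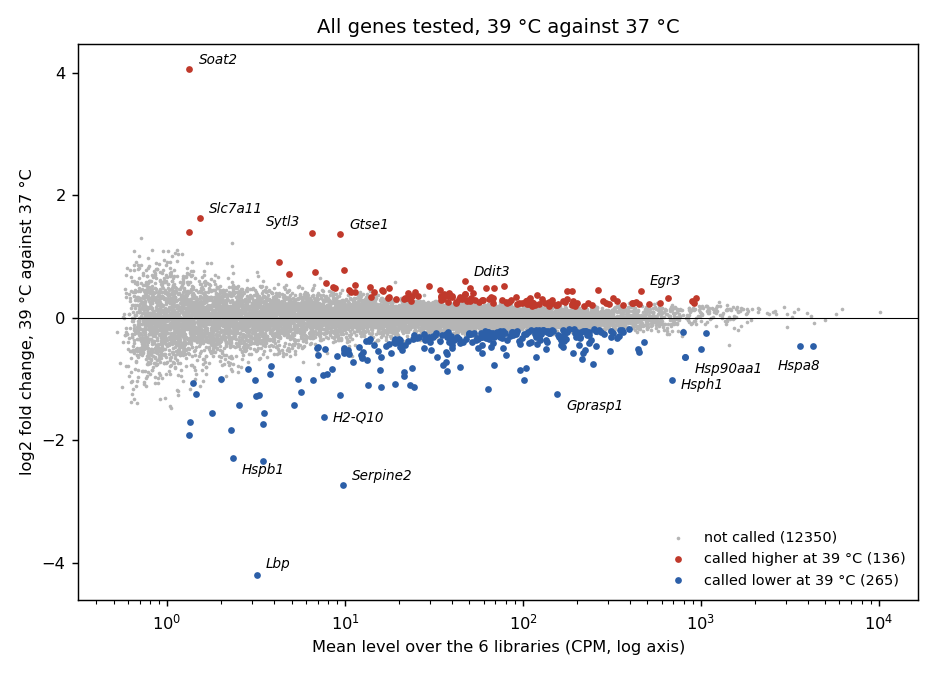
Each point is 1 of the 12751 genes tested, placed by its mean level over the 6 libraries (CPM, log axis) and its log2 fold change at 39 °C against 37 °C, with the 136 genes called higher in red, the 265 called lower in blue and the others in grey. The 2 points farthest from 0 are Soat2 (4.06) and Lbp (-4.20), both at low levels, while Hsph1, Hspa8 and Hsp90aa1 stand out among abundant genes by falling below 0.

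Chaperone genes that passed the test were all lower at 39 °C, the warmer setting. Over 6 lists of chaperones and heat shock factors, 101 of 106 listed genes were tested, 21 were called lower (20.8%, against 2.08% of all genes tested) and 0 higher by edgeR. DESeq2 called 22 of them lower and 0 higher. The median log2 fold change over the 101 was -0.042, against 0.0037 over all genes, so the fall was carried by a subset rather than by the lists as wholes. An unadjusted p under 0.05 was found for 38 of the 101. The 21 calls lay between 18 and 23 when any single library was left out.

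The family of Hsp70 and Hsp110 proteins does the core work of folding, and its nucleotide exchange factors reset the cycle. Hsph1 encodes Hsp110 (HSPH1), a chaperone and exchange factor for Hsp70, and lies on chromosome 5 at 149614287 to 149636376 in GRCm38. Hsph1 was at 911, 900 and 941 CPM in the 37 °C libraries and at 448, 443 and 460 CPM in the 39 °C libraries. The 3 warm libraries were thus near one another and below every 37 °C library, with a log2 fold change of -1.03 ± 0.047 (standard error of the fit, n = 3 per group, adjusted p 5.35e-08). Hspa8, the constitutive Hsc70, fell from 4162 ± 154 to 3008 ± 116 CPM (SD, n = 3), a log2 fold change of -0.47 ± 0.053. The exchange factor Bag3 fell by 0.69 on the log2 scale (adjusted p 0.00137) and the Hsp110 relative Hspa4l by 0.32 (adjusted p 0.0122). The stress-inducible Hspa1b was low at 37 °C, at 12.1, 14 and 12.1 CPM, and lower at 39 °C, at 9.37, 8.40 and 7.31 CPM. Its log2 fold change was -0.60 ± 0.12 (adjusted p 0.0122), and the call was lost without library 2 of either temperature (adjusted p 0.0561 and 0.0694), as was that of Hspa4l (0.0513 and 0.112). Hspa1b has a near-identical copy, Hspa1a, which was not called (-0.33, adjusted p 0.313). How reads that match both copies were counted is not given, so the levels of both genes are uncertain. In all, 5 of 17 tested members of this list were called lower and 0 higher, with a count of 3 when library 2 of either temperature was left out.

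Hsp90 matures kinases and steroid receptors with a set of co-chaperones, and this list held the highest share of called genes among the chaperone lists, with 9 of 18 lower and 0 higher. Its median log2 fold change was -0.24. Both cytosolic Hsp90 genes fell. The inducible Hsp90aa1 was at 975, 990 and 1022 CPM at 37 °C and at 630, 636 and 647 CPM at 39 °C, so the groups did not overlap (-0.64 ± 0.047, adjusted p 3.88e-06). The constitutive Hsp90ab1 was at 4959, 4781 and 5040 CPM at 37 °C and at 3656, 3577 and 3506 CPM at 39 °C (-0.46 ± 0.050, adjusted p 0.00012). The ATPase activators Ahsa1 and Ahsa2 fell by 0.68 and 0.87 on the log2 scale, though 50.2% of the exonic bases of Ahsa2 lie in exons of another gene, so its reads are uncertain. The Hsp70 to Hsp90 adaptor Stip1 (-0.57), the immunophilin Fkbp4 (-0.55), the cochaperone Chordc1 (-0.58), Nudc (-0.38) and p23, encoded by Ptges3 (-0.32), completed the 9. Each of these 9 calls was kept when any single library was left out. Cdc37, which brings kinases to Hsp90, was not called (0.046, adjusted p 0.697), nor was Pih1d1 of the R2TP complex (0.29, adjusted p 0.0524).

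DnaJ proteins deliver clients to Hsp70. Of 32 tested, 4 were called lower (12.5%, against 2.08% of all genes tested) and 0 higher, and the median was -0.010. Dnaja4 fell from 20.5, 20.2 and 19.9 CPM to 11.8, 11.2 and 10.5 CPM (-0.85 ± 0.085), with 44.1% of its exonic bases shared with another gene. Dnajb2 (-0.48), Dnajb1 (-0.30) and Dnaja1 (-0.29) also fell, the last losing its call without library 2 of the 39 °C group (adjusted p 0.0902). Mitochondrial chaperones gave 2 of 14, both lower. These were the chaperonin pair Hspd1 (Hsp60, -0.40 ± 0.049) and Hspe1 (Hsp10, -0.76 ± 0.075), which are neighbours on chromosome 1 with starts facing away from each other. Hspe1 gave 313, 289 and 333 CPM at 37 °C against 207, 177 and 166 CPM at 39 °C. The mitochondrial Hsp70 gene Hspa9 was not called (0.077, adjusted p 0.431).

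Among heat shock factors and small heat shock proteins, 6 of 10 listed genes passed the filter and 1 was called. Hspb1 (Hsp27) had 64, 59 and 39 reads in the 37 °C libraries and 13, 12 and 9 in the 39 °C libraries. In CPM this is 4.55, 4.04 and 3.02 against 0.806, 0.950 and 0.621, so no library of one temperature came near the other (-2.29 ± 0.26, adjusted p 0.000178). The heat shock factor genes Hsf1 (-0.18, adjusted p 0.0707) and Hsf2 (-0.14, adjusted p 0.347) were not called. The cytosolic chaperonin CCT folds actin and tubulin, and prefoldin feeds it. Of the 14 CCT and prefoldin subunits, 0 were called by edgeR and 1 by DESeq2, lower, with 5 at an unadjusted p under 0.05. Chaperones of the endoplasmic reticulum, with the unfolded protein response, gave 2 of 28 (7.14%, against 3.14% of all genes tested), both lower and small. These were Hsp90b1 (-0.22) and Canx (-0.19), calnexin. Both calls were lost without any one library of the 37 °C group or without library 2 of the 39 °C group. Hspa5, the reticulum's Hsp70, averaged 752 ± 24.5 CPM at 37 °C against 763 ± 22.3 CPM at 39 °C (SD, n = 3).

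**Figure D2:**
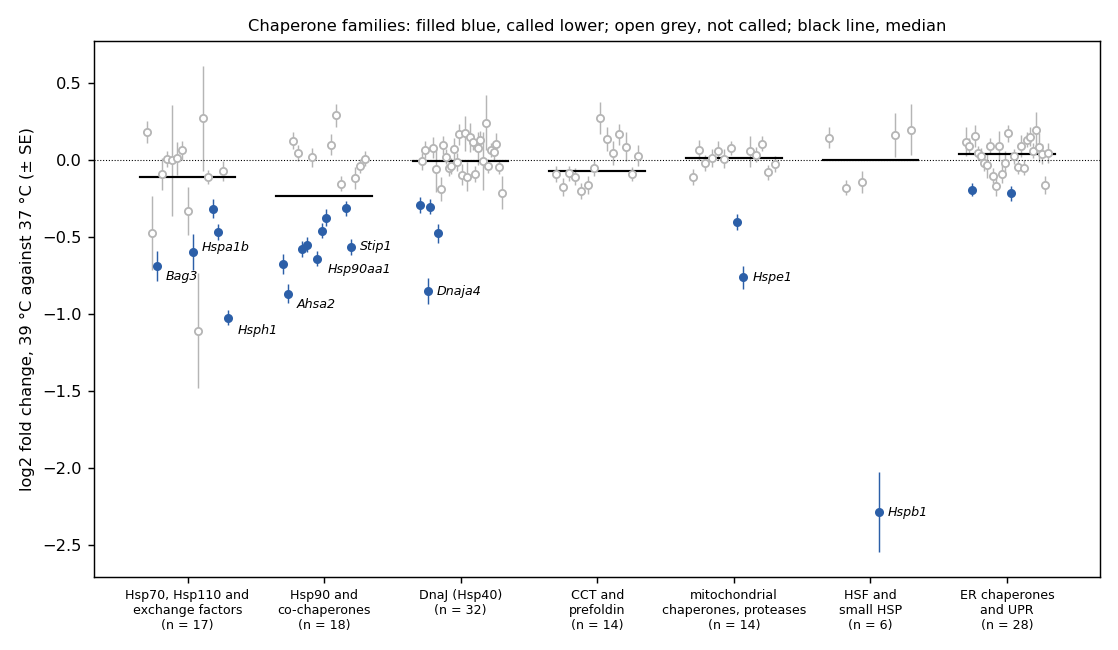
Each point is 1 tested gene, placed by family along the horizontal axis and by its log2 fold change at 39 °C against 37 °C, with a bar of ± 1 standard error of the fit; filled blue points were called lower, open grey points were not called and black lines are medians. In the Hsp90 family 9 of 18 points are filled, in the CCT and prefoldin family 0 of 14, and Hspb1 lies lowest at -2.29.

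Promoter sequences are shown for chaperone genes that fell, because the heat shock element is the sequence that HSF1 recognises. RefSeq windows from 250 bases before to 50 bases after a start (GRCm38.p6) were searched on both strands for GAANNTTC or TTCNNGAA, a pair of inverted pentamer cores that each read the same on both strands and that can overlap. In the stretches below, written 5′ to 3′ on the strand of the gene, capitals mark the matches.
Hspe1: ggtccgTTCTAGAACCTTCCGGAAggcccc
Hspb1: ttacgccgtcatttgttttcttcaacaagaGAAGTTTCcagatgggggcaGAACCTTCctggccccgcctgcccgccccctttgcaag
Hsph1: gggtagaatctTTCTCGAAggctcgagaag
Hspa1b: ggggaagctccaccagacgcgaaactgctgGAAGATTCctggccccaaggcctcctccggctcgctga
Fkbp4: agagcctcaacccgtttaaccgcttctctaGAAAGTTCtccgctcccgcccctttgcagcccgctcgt
The Hspe1 stretch lies at chr1:55088053-55088082 on the plus strand, 66 to 95 bases before the start, and holds 3 overlapping matches in 1 run. The window of its neighbour Hspd1 covers the same bases from the other strand, so both genes share these matches. The Hspb1 stretch, at chr5:135887772-135887859 on the plus strand, holds 2 separate matches. The others hold 1 match each on the minus strand, Hsph1 at chr5:149636351-149636380, Hspa1b at chr17:34959305-34959372 and Fkbp4 at chr6:128438770-128438837. Parts of the Hspe1 and Hsph1 stretches lie in annotated first exons of other transcripts of Hspd1 and Hsph1, and the Fkbp4 stretch lies in an exon of the predicted gene Gm10069.

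The core was found in a window of 11 of 18 chaperone genes called lower that had a window (61.1%) and of 12 of 63 chaperone genes not called (19.0%). Among all tested genes with a window it was found in 1271 of 9109 (14%), and among all windows of the table in 4946 of 32851 (15.1%). Of the genes called lower outside the chaperone lists, 37 of 186 (19.9%) held it, and of the genes called higher, 5 of 98 (5.10%). Chordc1 had the most matches, with 5. The 11 include both Hspd1 and Hspe1, whose matches are the same bases. The listed genes Hspb8 and Hsf5, which were below the filter and outside these counts of chaperone genes, also held the core. These shares are descriptions, and a match is not shown to be bound. Hspa8, Hsp90aa1 and Hsp90ab1 have no window in the table.

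**Figure D3:**
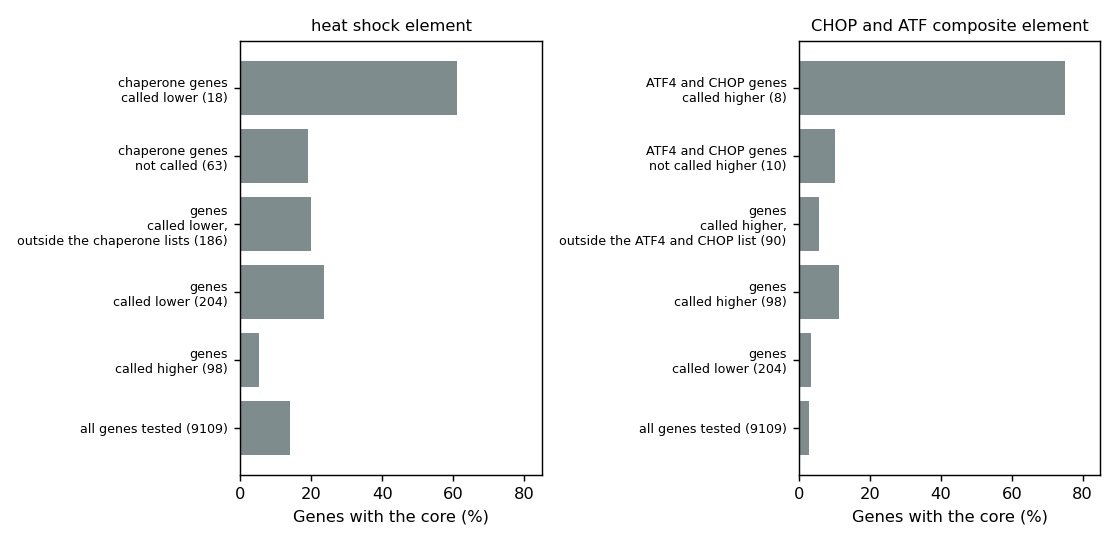
Bars give the percent of genes with at least 1 match in a promoter window, on the left for the heat shock element core and on the right for the CHOP and ATF composite core, with the number of genes with a window in brackets. The left panel peaks at chaperone genes called lower (61.1%) and the right panel at ATF4 and CHOP genes called higher (75.0%), against 14% and 2.73% of all genes tested.

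Genes of the ATF4 and CHOP response rose more often than they fell. Of 23 tested, 8 were called higher, against 1.07% of all genes tested, and 2 lower, with a median log2 fold change of 0.16. Ddit3, which encodes CHOP, was at 38.6, 37.4 and 37.0 CPM at 37 °C and at 59.6, 56.7 and 54.0 CPM at 39 °C, a gap far wider than the spread within either group (0.59 ± 0.060, adjusted p 6.73e-05). Pck2, the mitochondrial phosphoenolpyruvate carboxykinase, rose from 69.2, 64.4 and 60.8 CPM to 95.0, 88.8 and 93.8 CPM (0.51 ± 0.058). The pseudokinase Trib3, a feedback inhibitor of this pathway, rose by 0.48 ± 0.066, and Cyb5r1 by 0.49 ± 0.056. The transcription factor Atf3 rose by 0.38 (adjusted p 0.00573), a call lost without library 2 of the 39 °C group (adjusted p 0.054). Slc7a11, the cystine and glutamate exchanger, rested on few reads, 9, 14 and 8 at 37 °C and 34, 25 and 41 at 39 °C. Its log2 fold change was 1.62 ± 0.29 (adjusted p 0.00649), and the call was lost without library 1 of the 37 °C group (adjusted p 0.0567). Jdp2, a repressor related to ATF3, rose by 1.40 ± 0.30 on 8 to 12 reads per library at 37 °C and 24 to 34 at 39 °C, and lost its call in 3 of the 6 fits without 1 library. Chac1, which degrades glutathione, was just past the threshold (0.34 ± 0.084, adjusted p 0.0494) and lost its call without any library except library 3 of the 39 °C group. The 8 calls became 5 without library 1 of the 37 °C group, without library 2 of the 39 °C group and in DESeq2. DESeq2 did not call Chac1 and gave Slc7a11 and Jdp2 no adjusted p.

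The members called lower were the phosphatase subunit gene Ppp1r15a (GADD34, -0.20) and Mthfd2 of mitochondrial folate metabolism (-0.21). Both calls were lost without any 1 library of the 37 °C group and without library 2 of the 39 °C group. Atf4 itself averaged 409 ± 8.80 CPM at 37 °C against 415 ± 12.2 CPM at 39 °C (SD, n = 3), and the classic target Asns was not called (-0.24, adjusted p 0.326).

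Promoter stretches of 4 of the genes that rose are shown because CHOP and ATF factors bind a composite element in this pathway. The windows were searched on both strands for TGATGNAA, whose reverse complement is TTNCATCA, and capitals mark the matches.
Chac1: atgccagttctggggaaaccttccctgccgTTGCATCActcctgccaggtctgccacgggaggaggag
Pck2: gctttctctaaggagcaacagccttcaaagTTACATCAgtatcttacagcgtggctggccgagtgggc
Slc7a11: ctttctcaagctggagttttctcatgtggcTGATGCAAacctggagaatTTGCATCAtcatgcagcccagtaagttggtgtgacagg
Atf3: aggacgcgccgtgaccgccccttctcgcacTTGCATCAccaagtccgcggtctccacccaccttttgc
The Chac1 stretch lies at chr2:119351019-119351086 and the Pck2 stretch at chr14:55540133-55540200, both on the plus strand. The Slc7a11 stretch, at chr3:50443623-50443709 on the minus strand, holds 2 matches in opposite orientation. The Atf3 stretch lies at chr1:191183406-191183473 on the minus strand. Its RefSeq start is inside the annotated gene (191170296 to 191218039) and not at the gene's outer end. The core was found for 6 of the 8 members called higher (75.0%) and for 1 of 10 members not called higher with a window (10.0%), Asns. Among all tested genes with a window it was found for 249 of 9109 (2.73%). Over all windows of the table the share was 3.97%, and among genes called higher outside the list it was 5 of 90 (5.56%). The listed genes Fgf21, Nupr1 and Vldlr, which were below the filter and outside these counts of members, also held the core. The list gathers genes of this pathway, so its share is not independent of how it was chosen. As for the heat shock core, the shares are descriptions and no match is shown to be bound.

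Amino acid supply changed unevenly. Of 19 amino acid transporters, 2 rose and 0 fell in the edgeR test (10.5% called, against 3.14% of all genes tested). An unadjusted p under 0.05 was found for 6, and 1 was called higher in DESeq2, which gave Slc7a11 no adjusted p. One is Slc7a11, and the other is Slc1a4, a carrier of alanine, serine and cysteine, which rose from 25.0, 23.5 and 24.7 CPM to 33.7, 36.5 and 35.1 CPM (0.52 ± 0.068, adjusted p 0.000576). Of 16 genes of serine, one-carbon and proline synthesis, 4 fell and 1 rose (31.2% called). Phgdh and Psph, the first and last enzymes of serine synthesis, fell by 0.34 and 0.36 on the log2 scale, while Psat1 between them was not called (0.094, adjusted p 0.314). Gpt2 (-0.37) and Mthfd2 were the others that fell, and Mthfd1l rose (0.19, adjusted p 0.0474). The 4 falls became 2 without library 1 or library 3 of the 37 °C group and 1 without library 2 of the 39 °C group, and the rise of Mthfd1l was lost under both other scalings. Of 20 cytosolic aminoacyl-tRNA synthetases, 1 rose and 0 fell (5% called). The rise was Lars (0.27, adjusted p 0.00454), which lost its call without library 2 of the 39 °C group (adjusted p 0.0569).

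**Figure D4:**
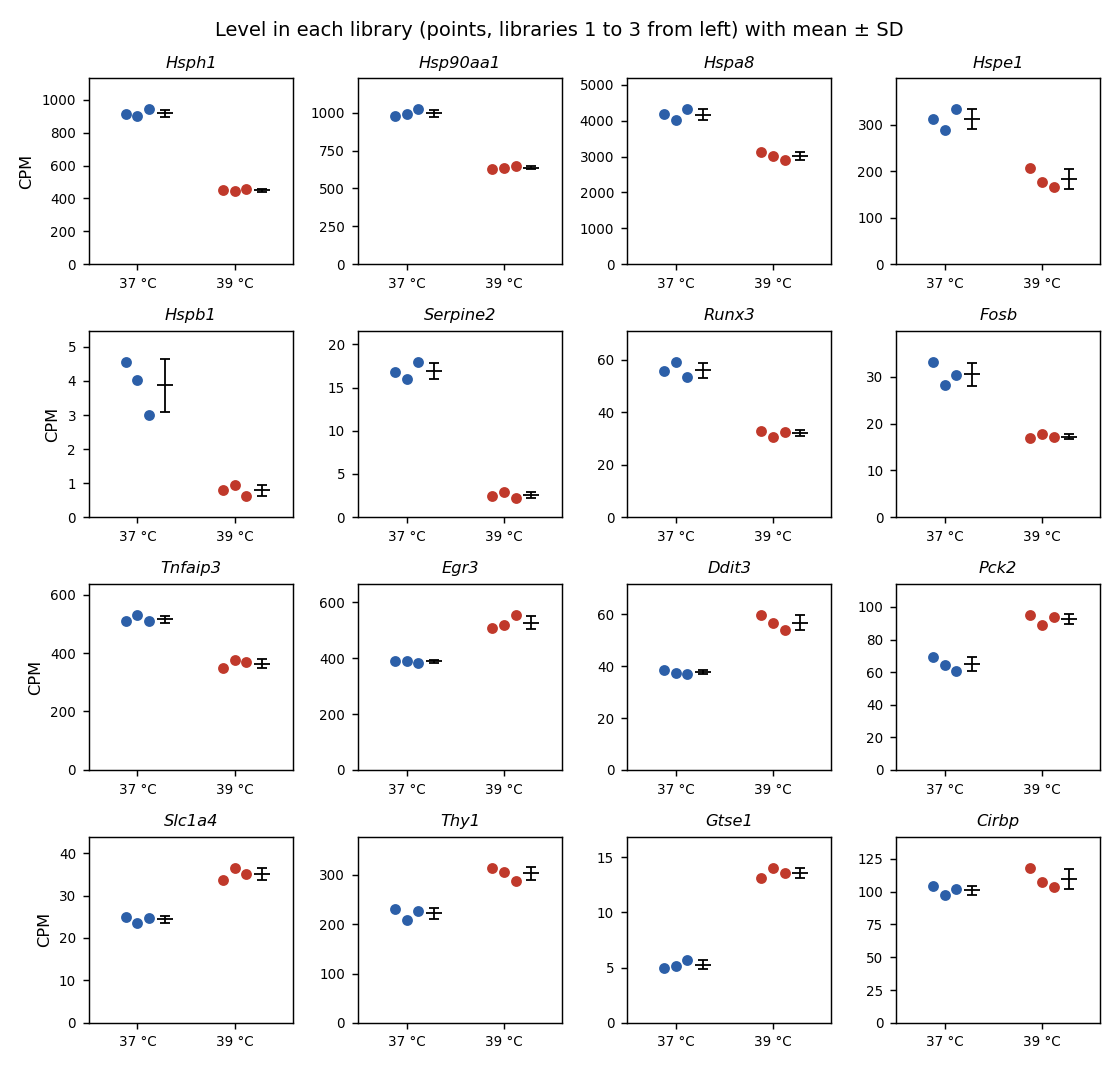
Each panel shows 1 gene, with its level in CPM in the 3 libraries at 37 °C (blue) and the 3 at 39 °C (red) as points and the mean ± SD of each group as a black cross bar; every vertical axis starts at 0. The 15 called genes among the 16 show no overlap of the temperatures, as does every called gene, against 21.2% of all genes tested. The ranges of Cirbp (97.3 to 104 CPM and 104 to 118 CPM), which was not called, meet.

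Of 33 genes of T cell activation tested, 1 rose and 2 fell (9.09% called, against 3.14% of all genes tested). An unadjusted p under 0.05 was found for 15 of the 33, with a median log2 fold change of 0.013. Il2, the T cell growth factor, averaged 32.0 ± 2.01 CPM at 37 °C against 36.8 ± 3.07 CPM at 39 °C (0.20 ± 0.077, adjusted p 0.206), and it was called without library 3 of the 39 °C group (adjusted p 0.0377). Its receptor chain Il2ra (0.14, adjusted p 0.119), the early surface marker Cd69 (0.19, adjusted p 0.128), Irf4 (-0.049, adjusted p 0.686) and Myc (-0.11, adjusted p 0.268) were not called. Tnf, an inflammatory cytokine, rose by 0.25 (adjusted p 0.0217), a call lost in 4 of the 6 fits without 1 library. The cytokine Tnfsf14 (LIGHT) fell from 65.2 ± 2.64 to 45.9 ± 1.86 CPM (SD, n = 3), with a log2 fold change of -0.50 ± 0.058. The checkpoint receptor Ctla4 fell by 0.24 (adjusted p 0.0278), also a call lost in 4 of the 6.

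Of 28 immediate early genes tested, 4 rose and 4 fell (28.6% called, against 3.14% of all genes tested). An unadjusted p under 0.05 was found for 18 of them, and for 16.4% of all genes. The rises were Egr1, Egr2 and Egr3, zinc finger factors of the EGR family, and Btg2. Egr3 was at 391, 390 and 384 CPM at 37 °C and at 509, 517 and 554 CPM at 39 °C (0.44 ± 0.049, adjusted p 0.000162). Egr1 went from 838 ± 28.3 to 1044 ± 24.7 CPM (SD, n = 3; 0.32 ± 0.049), and Egr2 rose by 0.20 (adjusted p 0.025). Btg2, an antiproliferative gene, rose by 0.22. Fosb, an AP-1 subunit, was at 33.1, 28.2 and 30.3 CPM at 37 °C and at 16.9, 17.7 and 17.0 CPM at 39 °C, roughly level within the warm group (-0.83 ± 0.081, adjusted p 4.63e-05). Jun (-0.36) and the MAP kinase phosphatases Dusp4 (-0.54) and Dusp5 (-0.23) fell too. The count of rises became 2 without any 1 library of the 37 °C group or library 2 of the 39 °C group, where Egr2 and Btg2 were lost. The count of falls became 2 without library 1 of the 37 °C group or library 2 of the 39 °C group and 7 without library 3 of the latter.

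NF-kB genes gave 1 rise and 2 falls among 23 (13% called, against 3.14% of all genes tested). Tnfaip3 (A20), the deubiquitinase that brakes NF-kB, was at 508, 530 and 509 CPM at 37 °C and at 348, 375 and 368 CPM at 39 °C, so every warm library was below every 37 °C library (-0.50 ± 0.049, adjusted p 4.61e-05). The inhibitor Nfkbie fell by 0.25 (adjusted p 0.0156) and the survival gene Bcl2l1 rose by 0.26 (adjusted p 0.0396). Nfkbie was not called without library 1 or 3 of the 37 °C group or library 2 of the 39 °C group, and Bcl2l1 was called in 1 of the 6 fits without a library.

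Genes of T helper lineages gave calls in the Th1 and regulatory T cell lists. Runx3, a runt factor known for Th1 and CD8 programmes, was at 55.7, 59.1 and 53.4 CPM at 37 °C and at 32.9, 30.7 and 32.4 CPM at 39 °C (-0.81 ± 0.063, adjusted p 7.16e-06). Of 14 Th1 genes, 2 fell and 0 rose, Il18r1 (-0.28, adjusted p 0.0343) being the other, lost in 4 of the 6 fits without 1 library. The share called was 14.3%, against 3.14% of all genes tested. An unadjusted p under 0.05 was found for 8 of the 14, against 16.4% of all genes, and 10 were below 0, with a median of -0.19. Tbx21, the master factor of Th1 cells, was not called (-0.43, adjusted p 0.153), and Ifng was below the filter with 16 reads over the 37 °C group and 19 over the 39 °C group. Of 14 Th2 genes 0 were called by edgeR or DESeq2, with 2 at an unadjusted p under 0.05, and Gata3 was at -0.063 (adjusted p 0.740). Of 10 Th17 genes 0 were called by either tool, with 3 at an unadjusted p under 0.05. Among 17 regulatory T cell genes, 1 rose and 3 fell (23.5% called), and 9 had an unadjusted p under 0.05. Gpr83, a receptor, rose from 29.4, 30.5 and 26.8 CPM to 39.2, 39.6 and 40.2 CPM (0.46 ± 0.067, adjusted p 0.00154) and was called in each of the 6 fits without 1 library, while Tigit (-0.61), Lrrc32 (GARP, -0.27) and Ctla4 fell. The 3 falls became 1 without library 1 of the 37 °C group or library 2 of the 39 °C group and 0 without library 2 of the 37 °C group. Foxp3, the defining factor, averaged 85.2 ± 1.89 CPM at 37 °C against 89.8 ± 1.44 CPM at 39 °C (SD, n = 3; adjusted p 0.463).

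Notch receptors, ligands and processing enzymes gave 0 of 26 by edgeR and 1, lower, by DESeq2. An unadjusted p under 0.05 was found for 5 of the 26, and for 16.4% of all genes tested. Notch1 was at -0.17 (adjusted p 0.403) and its nuclear partner Rbpj at 0.078 (adjusted p 0.556). Of 9 Notch targets, 1 rose and 0 fell (11.1% called, against 3.14% of all genes tested). The rise was Bcl2 (0.20, adjusted p 0.039), called in 1 of the 6 fits without a library and not by DESeq2. The target Dtx1 was at -0.35 (adjusted p 0.0995). Of 15 TRP and store-operated calcium channel genes that passed the filter, 1 rose and 0 fell (6.67% called). The rise was the channel subunit Orai2 (0.21, adjusted p 0.0319), lost in 4 of the 6 fits. The heat-gated channel genes Trpv2 (0.14, adjusted p 0.369) and Trpv4 (0.51, adjusted p 0.355) were not called, and 16 of the 31 listed channel genes, Trpv1 and Trpv3 among them, were below the filter.

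Growth and damage genes held 2 strong single calls. Ccnd2, the D-type cyclin that T cells raise on entry into the cycle, fell from 997 ± 13.4 to 637 ± 29.6 CPM (SD, n = 3; -0.64 ± 0.050, adjusted p 7.16e-06). Gtse1, a microtubule-binding protein that restrains p53, was at 4.98, 5.13 and 5.72 CPM at 37 °C and at 13.2, 14 and 13.5 CPM at 39 °C (1.36 ± 0.11, adjusted p 8.27e-06). These were the 2 called of 30 cell cycle and replication genes (6.67%, against 3.14% of all genes tested). Of 23 p53 pathway genes, 3 rose and 2 fell (21.7% called). Phlda3, an inhibitor of AKT, rose by 0.78 (adjusted p 0.00959), Gtse1 and Btg2 were the other rises, and the death receptor Fas (-0.57) and Gadd45b (-0.37) fell. The 3 rises became 1, Gtse1, without library 1 of the 37 °C group or library 2 of the 39 °C group.

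Cold-inducible RNA binders, CLK kinases and SR proteins, whose splicing and level are known to respond to body temperature, gave 0 of 20 by edgeR and by DESeq2, with 4 at an unadjusted p under 0.05. Cirbp was at 104, 97.3 and 102 CPM at 37 °C and at 118, 107 and 104 CPM at 39 °C (0.12, adjusted p 0.324). Rbm3 (0.11, adjusted p 0.278) and Clk1 (0.10, adjusted p 0.295) were not called either. Gene counts do not show splicing. Of 21 clock genes, 1 rose and 0 fell in edgeR (4.76% called, against 3.14% of all genes tested), and 1 fell in DESeq2. The rise was Bhlhe40 (0.34 ± 0.057, adjusted p 0.00445), which T cells also raise on activation.

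Metabolic lists showed single members. Of 35 sterol and fatty acid genes, 2 rose and 2 fell (11.4% called, against 3.14% of all genes tested). Soat2, which esterifies cholesterol, had 2, 1 and 3 reads at 37 °C and 47, 30 and 33 at 39 °C (4.06 ± 0.39, adjusted p 4.33e-05), the highest log2 fold change of any tested gene. Hmgcs1 of sterol synthesis rose by 0.24, and the desaturase Scd2 (-0.42) and the cholesterol exporter Abca1 (-0.58) fell. The calls of Hmgcs1 and Abca1 were each lost in 4 of the 6 fits without 1 library and that of Scd2 in 3. The 2 falls became 0 without library 1 or 2 of the 37 °C group or library 2 of the 39 °C group. DESeq2 did not call Hmgcs1 and gave Soat2 no adjusted p, so the rise of Soat2 was not tested there. Of 32 glycolysis and pentose phosphate genes, 2 rose (6.25% called), Pdk1 (0.24) and Ldhb (0.32). Neither was called without library 1 or library 3 of the 37 °C group or without library 2 of the 39 °C group. Of 22 NRF2 genes, 1 rose (4.55% called), Slc7a11 again. Nuclear-encoded respiratory chain subunits gave 0 of 42 by both tools, with 3 at an unadjusted p under 0.05. They lay to one side, with 37 of 42 above 0, against 6495 of 12751 genes tested, and a median of 0.095. The read share of ribosomal protein genes was 7.76% to 8.82% at 37 °C and 8.22% to 9.96% at 39 °C. The part of this share in the shift was not tested, nor was that of exonic length. Genes of the mitochondrial genome gave 0 of 10 by both tools, with 2 at an unadjusted p under 0.05 and a median of 0.12. Of 38 ribosome biogenesis factors, 2 fell (5.26% called), Rrp12 and Noc3l (both -0.21), each lost in 5 of the 6 fits without 1 library.

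The remaining lists held few calls, where 3.14% of all genes tested were called. Of 33 type I interferon genes, 1 fell, Bst2 (-0.31, adjusted p 0.039), not called by DESeq2 and lost in 4 of the 6 fits without 1 library (adjusted p up to 0.198). Of 19 MHC class I genes, 1 fell, H2-Q10, from 11.2, 11 and 12.2 CPM to 4.65, 3.56 and 2.90 CPM (-1.62 ± 0.15), a gene whose reads can be shared with near-identical class I copies. Of 26 genes of naive identity and quiescence, 1 rose, Btg2, and 1 fell, the homing receptor Ccr7 (-0.23, adjusted p 0.0389), lost in 4 of the 6 fits without 1 library. Of 4 nuclear long non-coding RNAs 0 were called by either tool, with 3 at an unadjusted p under 0.05.

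**Figure D5:**
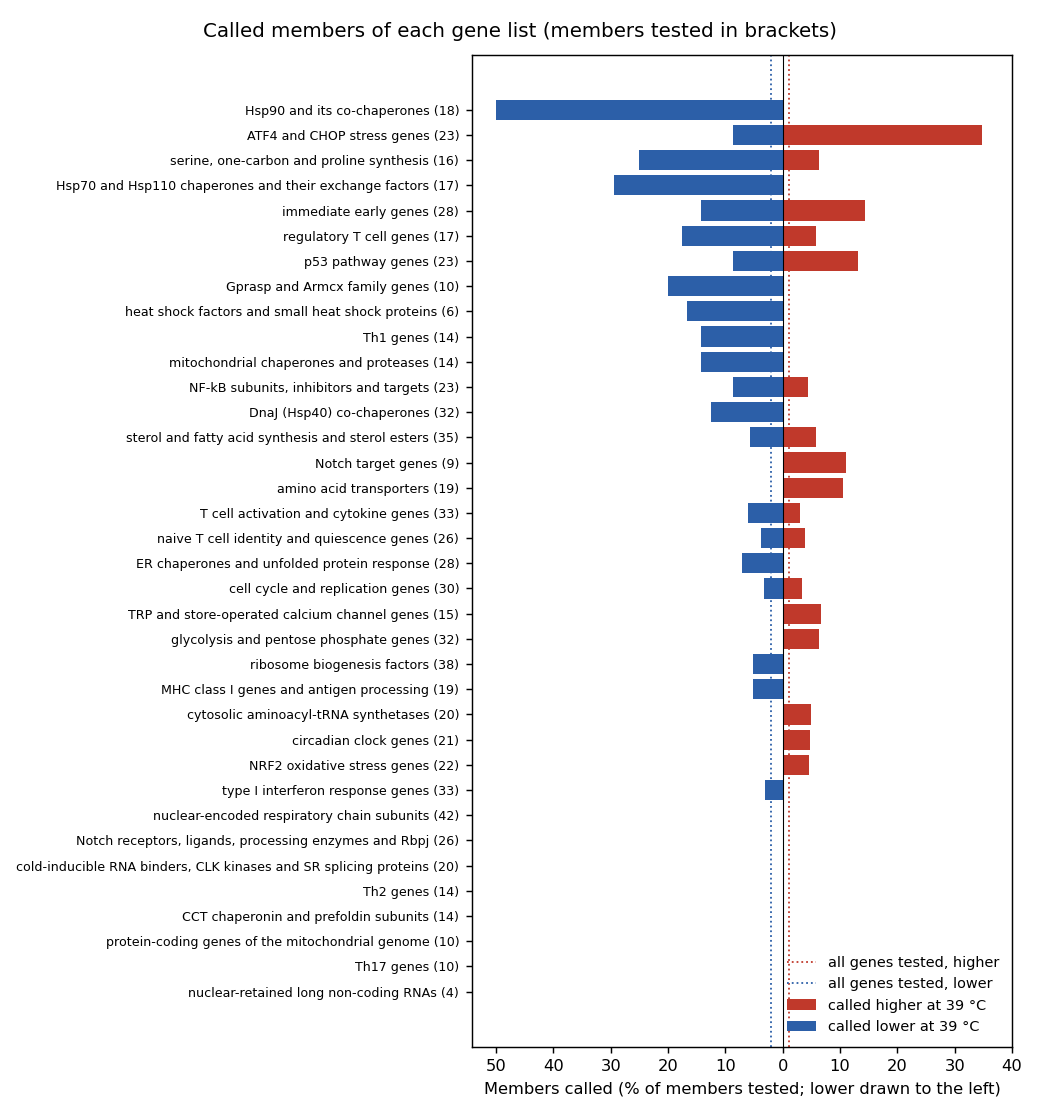
Bars give the percent of tested members of each of the 36 gene lists that were called lower (blue, to the left) or higher (red, to the right) at 39 °C, with the number tested in brackets and dotted lines at the share over all genes tested (2.08% lower, 1.07% higher). The longest blue bar is Hsp90 and its co-chaperones (9 of 18) and the longest red bar is the ATF4 and CHOP list (8 of 23).

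Outside these pathways, the genes with the largest falls were a mixed set. Lbp, which encodes the lipopolysaccharide binding protein and lies on chromosome 2 at 158306493 to 158332852, had 76, 102 and 76 reads at 37 °C and 7, 1 and 6 at 39 °C (-4.20 ± 0.30, adjusted p 3.66e-06). Serpine2, a serine protease inhibitor (chromosome 1, 79794197 to 79861180), was at 16.9, 16.0 and 17.9 CPM at 37 °C and at 2.48, 2.93 and 2.21 CPM at 39 °C (-2.74 ± 0.13, adjusted p 5.35e-08). Both were far below every 37 °C library in every warm library. Gprasp1, a sorting protein for G protein-coupled receptors on the X chromosome, had the lowest adjusted p named here (3.56e-08). Its levels were 214, 219 and 224 CPM at 37 °C and 86.9, 93.9 and 96.5 CPM at 39 °C (-1.24 ± 0.052). Its paralog Gprasp2 fell by 1.43, and 0 of the other 8 tested members of the Gprasp and Armcx family list were called. Lman2l, a cargo lectin of the early secretory pathway, fell from 90.8, 84.7 and 88.6 CPM to 37.6, 39.7 and 40.2 CPM (-1.17 ± 0.056). The others among the 10 largest falls at a mean of at least 5 CPM were Prickle1 of planar cell polarity (-1.21), the lysyl hydroxylase Plod1 (-1.14), Vwce (-1.27), Fer1l5 (-1.13) and Tmc4 (-1.11), beside H2-Q10. All 10 were called in each of the 6 fits without 1 library. Fer1l5 (chromosome 1, 36372291 to 36422110, plus strand) and Lman2l (36419871 to 36445271, minus strand) overlap at their ends. Of their exonic bases, 1.6% and 1.4% lie in exons of another gene. The strand setting of the counts is not given, and whether the 2 genes share reads was not tested.

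The 10 largest rises under the same rule were smaller. They began with Sytl3, a synaptotagmin-like trafficking protein, at 3.84, 3.70 and 3.32 CPM at 37 °C and 8.69, 8.87 and 10.9 CPM at 39 °C (1.38 ± 0.14, adjusted p 7.95e-05). Gtse1, Phlda3, Ddit3, Slc1a4 and Pck2 were also among them. The others were the receptor kinase Axl (0.74), the propionyl-CoA carboxylase subunit Pcca (0.56), the troponin Tnnt2 (0.54) and Enox2 (0.50), each of which lost its call without library 2 of the 39 °C group and at least 1 further library.

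Levels in the naive libraries place these differences, on a scaling of all 9 libraries and with no test. Hsph1 averaged 57.0 CPM in naive cells, 922 CPM after activation at 37 °C and 453 CPM at 39 °C. Hspe1 averaged 100 CPM, 313 CPM and 184 CPM in the same order, and Hsp90aa1 197 CPM, 1001 CPM and 642 CPM. For these 3 genes the warm group thus lay between the naive and the 37 °C means. Serpine2 averaged 0.705 CPM, 17.0 CPM and 2.55 CPM, and Gprasp1 67.1 CPM, 220 CPM and 93.0 CPM, in the same arrangement. Ddit3 averaged 23 CPM, 37.9 CPM and 57.1 CPM and Egr3 27.9 CPM, 390 CPM and 530 CPM, so there the warm group was the farthest from naive. Fosb (55.3 CPM, 30.7 CPM and 17.3 CPM), Runx3 (71.0 CPM, 56.4 CPM and 32.2 CPM) and Tnfaip3 (739 CPM, 519 CPM and 366 CPM) were highest in naive cells and lowest at 39 °C. Thy1, a T cell surface marker, averaged 588 CPM, 223 CPM and 305 CPM, so the warm group lay between the others from above. Lbp averaged 3.05 CPM, 6.12 CPM and 0.311 CPM, with the warm group below naive. The called chaperone gene Bag3 averaged 14.5 CPM, 16.4 CPM and 10.1 CPM, also below naive at 39 °C, so not every called chaperone gene lay between the other groups.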

How the data were processed

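Per the labels' protocols, TRIzol served for RNA extraction and the TruSeq RNA kit v2 for the libraries. For each library the authors deposited 1 table with raw, unscaled counts per gene. HISAT2, HTSeq, FastQC, DESeq2 and GRCm38 appear in the submitters' processing notes, while roles, versions, strand setting and annotation release are not given in the sources used here. Of 55573 gene identifiers, 55480 matched GENCODE M21, which gave symbols, coordinates and exonic lengths.

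The 6 activated libraries (12647692 to 16267632 counts each) were fitted alone. The filter was filterByExpr (minimum count 10, minimum total 15), the scaling TMM, and the test edgeR's 2-sided quasi-likelihood F test (edgeR 4.0.16, R 4.3.3). Benjamini-Hochberg adjustment ran over the 12751 genes tested, and an adjusted p under 0.05 made a call. A standard error is the size of the log2 fold change divided by the root of F. The script was checked on simulated counts. DESeq2 1.42.0 and further alternatives are given in the closing section.

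Genes were named by rule: the 10 largest rises and falls among calls at 5 CPM or more on average, with no overlap of libraries and no predicted model, up to 4 called members of each of 36 lists, and genes fixed by name. Further called members of lists, and the genes under "Other observations", were named after their values were seen. The members and lists were chosen with earlier results of these data known. Some genes of these lists are not reported here.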

Additional observations from a re-analysis of the deposited data

How the results depend on the processing

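Of the 401 calls, 0 changed direction in any of the 14 alternatives that fitted the gene. The alternative with a minimum count of 50 tested 9925 genes, so genes of few reads could not be checked there. The 136 genes called higher became 361 with any gene of at least 1 count kept, 18 in a fit of all 9 libraries, 84 with the replicate number as a block, and 34 to 410 when single libraries were left out. The 265 called lower became 457, 83 and 189 under the same 3 settings and 116 to 569 without single libraries. With the trend on exonic length removed, an alternative chosen after seeing the data, the counts were 271 and 434. The 5 genes called at least 2-fold higher became 13 with any count kept, 2 with a minimum count of 50, 2 in DESeq2 and 3 to 12 without single libraries. DESeq2 gave Soat2, Slc7a11 and Jdp2 no adjusted p, so their absence there is not a failed test. The 31 called at least 2-fold lower ranged from 24 to 45 without single libraries, and the 21 chaperone genes called lower numbered 16 in the fit of all 9 libraries and 25 with the length trend removed. Genes called higher made up 33.9% of calls, 32.6% with RLE scaling and 37.0% with library size alone. The block kept 270 of the 401 calls, DESeq2 311 (with an adjusted p for 10862 genes), the fit of all 9 libraries 101 and the length-trend fit 393. Same-numbered libraries of the temperatures did not deviate together (correlations 0.0707, -0.00948 and -0.187), so the numbers are not taken to pair them, and not every library correlated best with its own number. Genes near 0 changed sign when single libraries were left out, where Gata3 ranged from -0.11 to 0.017, Atf4 from -8.6e-05 to 0.040 and Hspa5 from -0.0018 to 0.043. Hspa5 was at -0.00096 without library 1 at 39 °C, and Atf4 at -0.020 with the length trend removed. With the length trend removed, Hsf1 (-0.16), Il2ra (0.15), Cd69 (0.21) and Myc (-0.14) passed the threshold and Chac1 (0.28, adjusted p 0.0785) did not. The cause of these shifts was not tested. Depth limits genes of few reads such as Soat2, Slc7a11 and Jdp2.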

Other observations

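Several groups outside the lists described above held genes past the threshold of edgeR's test, and all were chosen after their values were seen. Of 9 tested prolyl and lysyl hydroxylases, enzymes that modify collagen or the factor HIF, 3 fell and 0 rose (33.3% called, against 3.14% of all genes tested). P4ha1, a catalytic subunit of collagen prolyl 4-hydroxylase, was at 130, 132 and 142 CPM at 37 °C and at 63.0, 70.6 and 66.2 CPM at 39 °C (log2 fold change -1.02 ± 0.057, standard error). The related subunit P4ha2 fell by 1.73 and the lysyl hydroxylase Plod1 by 1.14. Each of these calls was kept when any single library was left out. The HIF hydroxylase genes Egln1 (0.052, adjusted p 0.709), Egln2 (0.096, adjusted p 0.362) and Egln3 (-0.021, adjusted p 0.977) were not called.

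Among 11 tested Ly6 relatives and other small surface proteins held by a lipid anchor, 5 rose and 2 fell (63.6% called, against 3.14% of all genes tested). Thy1 was at 231, 208 and 227 CPM at 37 °C and at 314, 306 and 289 CPM at 39 °C (0.45 ± 0.054, adjusted p 0.00027), with no overlap. Cd52 (0.44), Ly6c1 (0.40), Ly6e (0.32) and Ly6a (0.25) rose as well, and Cd24a (-0.64) and Ly6k (-1.26) fell. The 5 rises became 3 and the 2 falls 1 without library 3 of the 37 °C group or library 2 of the 39 °C group, where Ly6k was not called (adjusted p up to 0.079). Of the exonic bases of Ly6k, 47.6% lie in exons of another gene, so its reads are uncertain. Thy1 was kept in each of the 6 fits without 1 library.

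Of 10 MHC class II genes, which T cells of the mouse largely lack and B cells carry, 3 fell and 0 rose (30% called, against 3.14% of all genes tested). H2-Eb1 fell by 0.57 (adjusted p 0.0065), H2-Ab1 by 0.37 (adjusted p 0.036) and the invariant chain Cd74 by 0.25 (adjusted p 0.0325), and 0 of the 3 were called without library 1 of the 37 °C group or library 2 of the 39 °C group. The 18 listed B cell markers summed to 297 to 308 CPM at 37 °C and 321 to 334 CPM at 39 °C, and Ighm alone was at 143 to 174 CPM (TMM-scaled). Of the 16 B cell markers tested, 9 were below 0, among them Blk (-0.63), Fcrla (-0.57) and Blnk (-0.39), with a median of -0.055 and 0 called. The part of other cells in the fall was not tested.

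Some further genes were picked after their values were seen and stand for no group. Ubqln1, a shuttle to the proteasome, fell by 0.41 (adjusted p 0.000357), Cacybp, a co-chaperone-like ubiquitin ligase adaptor, by 0.40, the stress-inducible Zfand2a by 0.39, Hikeshi, the nuclear carrier of Hsp70, by 0.32 and the Hsp70 cofactor St13 by 0.26. Zfand2a and St13 were not called without library 2 of the 39 °C group, nor was Hikeshi, which was also lost without any 1 library of the 37 °C group. The lipid droplet protein gene Plin2 went from 18.4 ± 1.57 to 8.58 ± 0.693 CPM (SD, n = 3; -1.10 ± 0.10), and the phospholipid-binding Anxa5 from 124 ± 4.0 to 68.9 ± 2.19 CPM (-0.85 ± 0.051). The adhesion protein gene Bcam fell by 2.35 (adjusted p 4.63e-05). The mechanosensitive channel gene Piezo1 fell by 0.49 (adjusted p 0.00989), a call lost without library 1 of the 37 °C group or library 2 of the 39 °C group. The receptor kinase gene Kit rose by 0.90 (adjusted p 0.00607).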
